A study of Mus musculus with 24 samples.

Results

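The genes described here were 10 regulators of RNA splicing and stability, picked by name from the 22889 entries of the deposited expression table: the neuronal Elav-like genes *Elavl2*, *Elavl3* and *Elavl4*, the splicing factors *Nova1*, *Nova2*, *Rbfox1*, *Rbfox2*, *Rbfox3* and *Ptbp2*, and *Ptbp1*, taken as the non-neuronal counterpart of *Ptbp2*. Each of the 10 had a single entry, and each passed the filter for testing, a value above 0 in 2 or more libraries of the fit. The samples were 24 bulk poly(A) libraries from mouse embryonic stem cells, 6 in each of 4 groups, sorted by FACS on a GFP reporter after 5 days of patterning as embryoid bodies. The oculomotor (OMN) culture came from an Islet1-GFP line that also carries *NesEPhox2a*, in which a nestin enhancer drives Phox2a in neural progenitors, and was given 250 nM of the smoothened agonist SAG with 100 ng/ml Fgf8. The spinal (SC) culture came from a Hb9-GFP line and was given 500 nM SAG with 100 nM retinoic acid. The OMN GFP-positive and SC GFP-positive samples are the reporter-expressing cells of each culture, and the GFP-negative samples are the remaining cells. Stem cell line, reporter, Phox2a transgene and morphogens all changed together between the cultures, so they cannot be told apart in any comparison of OMN with SC. The labels do not say that replicates were separate differentiations, and p values then measure only the spread between these samples.

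Elav-like (Hu) proteins bind U-rich stretches of transcripts, stabilize them and regulate their splicing, and the neuronal members appear as progenitors leave the cell cycle. Nova proteins bind YCAY clusters and Rbfox proteins bind GCAUG elements, and both change exon choice in neurons according to where they bind. PTBP1 represses neuron-specific exons in progenitors and most other cells, and its paralog PTBP2, which replaces it in young neurons, is itself held down in part by PTBP1 through exon skipping and decay of its transcript. Values below are RPKM of a whole gene, that is, reads scaled to transcript length and to the mapped reads of the library, so they give transcript levels and not splicing.

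Promoters are shown for *Elavl3*, which had the highest median ratio of GFP-positive to GFP-negative RPKM in the OMN culture (45.2), for a start of *Elavl4*, the most abundant member in each GFP-positive group, and for *Ptbp1* as the counterpart. The windows are the 250 bases before a RefSeq start in GRCm38.p6, read 5′ to 3′ on the strand of the gene, and capitals mark the E-box letters CAGCTG, or CAGATG on either strand, the kind of site that proneural basic helix-loop-helix factors bind. *Elavl3* lies on the minus strand (chr9:22052024-22052273), *Elavl4* start 2 on the minus strand (chr4:110287528-110287777) and *Ptbp1* on the plus strand (chr10:79854182-79854431).
Elavl3: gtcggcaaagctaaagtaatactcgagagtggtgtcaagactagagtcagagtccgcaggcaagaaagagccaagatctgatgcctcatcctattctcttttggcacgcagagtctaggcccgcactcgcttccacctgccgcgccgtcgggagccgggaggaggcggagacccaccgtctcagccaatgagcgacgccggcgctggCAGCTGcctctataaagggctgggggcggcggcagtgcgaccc
Elavl4: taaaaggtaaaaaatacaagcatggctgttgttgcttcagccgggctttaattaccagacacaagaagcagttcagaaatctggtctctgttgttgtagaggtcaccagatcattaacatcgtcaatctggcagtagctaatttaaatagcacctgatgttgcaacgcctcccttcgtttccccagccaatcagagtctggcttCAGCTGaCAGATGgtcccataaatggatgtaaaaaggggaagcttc
Ptbp1: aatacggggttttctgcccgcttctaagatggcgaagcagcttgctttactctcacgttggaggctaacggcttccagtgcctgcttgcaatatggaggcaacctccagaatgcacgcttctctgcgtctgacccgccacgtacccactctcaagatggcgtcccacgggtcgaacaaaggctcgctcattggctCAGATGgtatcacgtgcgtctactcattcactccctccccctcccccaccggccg
In *Elavl3* the CAGCTG lay 43 bases before the start. In *Elavl4* start 2 a CAGCTG at 46 and a CAGATG at 39 bases before the start were separated by a single base. Start 3 of *Elavl4* also held both, start 4 held CATCTG, the reverse complement, and start 1 held none. The *Ptbp1* window held a CAGATG at 55 bases. Of the other members, *Nova1* held a CAGCTG at 193 bases and *Rbfox1* start 2 held a CAGCTG at 72 bases, and no such letters were found in the windows of *Elavl2*, *Nova2*, *Rbfox3* or *Ptbp2*. CAGCTG was present in 13% and CAGATG, on either strand, in 14.4% of 32851 windows of all genes, so a match is a description of letters only, and gene-level RPKM do not show which start was in use. *Rbfox2* is named here without a window.

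Depth was estimated at 752529 to 4642207 reads in the 16 libraries of replicates 1 to 4 and at 4822576 to 7675428 reads in the 8 libraries of replicates 5 and 6. *Isl1* was at 141 to 369 RPKM in OMN GFP-positive and 0.696 to 1.87 RPKM in OMN GFP-negative samples. *Phox2a* was at 5.83 to 53.4 RPKM in OMN GFP-positive and 3.09 to 6.43 RPKM in OMN GFP-negative samples, which overlapped. *Mnx1*, which encodes Hb9, was at 43.1 to 149 RPKM in SC GFP-positive samples. Spinal replicate 4 went against its labels. Its GFP-negative library held *Mnx1* at 69.4 RPKM, against at most 4.72 in the other SC GFP-negative samples, and its fractions correlated at r = 0.956 across genes, against at most 0.902 in the other 11 pairs. In its GFP-positive library 8 of the 10 members were at their lowest SC GFP-positive level and *Ptbp1* at its highest. The summed RPKM of 10 pan-neuronal markers was 91.8 there (91.8 to 2692 over the SC GFP-positive group). That of 6 pluripotency markers was 5142, within a group range of 14.4 to 12400 whose highest value was in replicate 5, where *Dppa5a* alone was at 12328 RPKM. The mean log2(RPKM + 1) of these 6 markers was highest in replicate 4, at 6.64, against 5.08 in replicate 5. The spinal steps of the members and the counts that rest on them are therefore also given without this pair, as are the other spinal values below where leaving it out changed a call. In SC GFP-negative replicate 2, 68.8% of the summed RPKM lay in 3 predicted gene models, which lowers the RPKM of all other genes in that library.

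The 3 Elav-like genes all rose in the sorted OMN neurons, and *Elavl2* and *Elavl4* also rose in the SC culture. *Elavl4* (HuD, chr4:110203722-110351909) had the highest median of the members in each GFP-positive group, with a lowest, median and highest level of 184, 207 and 272 RPKM in OMN GFP-positive samples and of 4.05, 5.42 and 9.77 RPKM in OMN GFP-negative samples. In the SC culture it was at 13.9, 108 and 154 RPKM in GFP-positive and at 10.8, 15.5 and 36.4 RPKM in GFP-negative samples. The OMN fractions lay far apart in all 6 pairs, whereas in the SC culture the GFP-positive replicate 4, at 13.9 RPKM, fell within the GFP-negative range. The step from negative to positive, in limma on log2(RPKM + 1) with Benjamini-Hochberg adjustment over all genes, was 4.97 ± 0.41 (SE, adjusted p = 4.17e-08, higher in 6 of 6 pairs) in the OMN culture and 2.14 ± 0.41 (adjusted p = 0.00711, 6 of 6 pairs) in the SC culture.

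*Elavl2* (HuB, chr4:91250763-91400785) stood at 11.1, 14.4 and 23.5 RPKM in OMN GFP-positive and at 1.09, 1.91 and 2.76 RPKM in OMN GFP-negative samples. In the SC culture its levels were 4.56, 26.4 and 78.2 RPKM in the positive and 2.49, 4.67 and 5.91 RPKM in the negative fraction. The OMN groups did not overlap, and in the SC culture the overlap came from replicate 4 alone. Its steps were close in size, 2.53 ± 0.42 (adjusted p = 0.000409) in the OMN and 2.28 ± 0.42 (adjusted p = 0.00498) in the SC culture. The ratio of positive to negative RPKM within a pair had a median of 8.34 in OMN (6.99 to 10.5) and 7.60 in SC (0.785 to 13.2).

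*Elavl3* (HuC, chr9:22015005-22052023), a marker of newly born neurons, had the largest standard error of the members' steps. It was at 14.6, 51.8 and 218 RPKM in OMN GFP-positive and at 0.271, 1.23 and 9.68 RPKM in OMN GFP-negative samples. The SC fractions gave 5.68, 35.3 and 193 RPKM in positive and 2.52, 11.7 and 69.0 RPKM in negative samples. Despite that spread, every OMN pair moved the same way, by a ratio of 22.6 to 61.6, and the step was 4.23 ± 0.84 (adjusted p = 0.0026). The SC step of 1.43 ± 0.84 did not pass without the block (adjusted p = 0.60, higher in 5 of 6 pairs), and passed with the replicate number as a block (adjusted p = 0.0316), though not in a blocked fit of the spinal samples alone (adjusted p = 0.209).

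**Figure D1:**
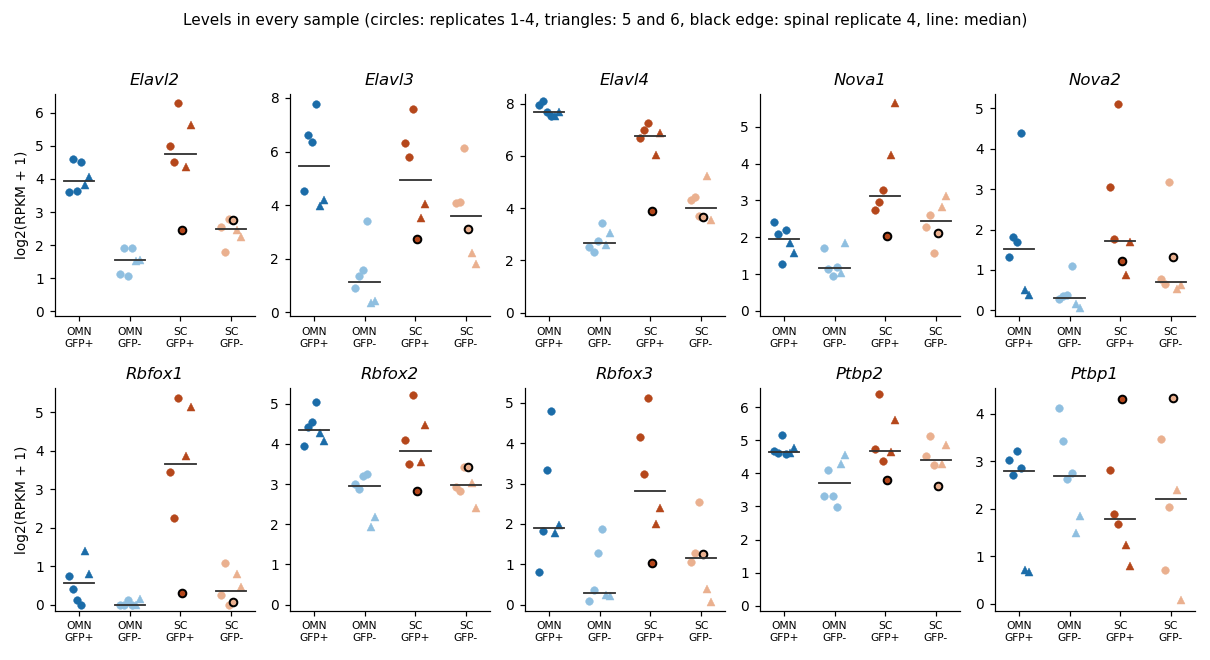
Level of each of the 10 genes in every sample as log2(RPKM + 1), by group (OMN, oculomotor culture; SC, spinal culture), with circles for replicates 1 to 4, triangles for replicates 5 and 6, a black edge for spinal replicate 4 and a line at the group median. *Elavl4* in the 6 OMN GFP-positive samples sits above every other sample, and 5 of the 6 SC GFP-positive samples stand above all others for *Rbfox1*.

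Of the Rbfox genes, *Rbfox2* (chr15:77078990-77307004), which is widely expressed and also acts outside neurons, was the most abundant. It was at 14.5, 19.3 and 32.2 RPKM in OMN GFP-positive and 2.85, 6.71 and 8.56 RPKM in OMN GFP-negative samples, which did not overlap. SC GFP-positive samples gave 6.09, 13.4 and 36.4 RPKM and SC GFP-negative samples 4.33, 6.89 and 9.78 RPKM, with replicate 4 the only positive sample in the negative range. The OMN step was 1.64 ± 0.34 (adjusted p = 0.00342) and the SC step 0.94 ± 0.34 (adjusted p = 0.244), which became 1.24 (adjusted p = 0.0491) without the spinal pair 4. Rbfox2 made up a median of 93.3% of the summed Rbfox RPKM in OMN GFP-negative and 81.4% in OMN GFP-positive samples and 85.4% in SC GFP-negative samples, against 38.4% in SC GFP-positive samples.

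*Rbfox1* (chr16:5885355-7411526) had a different distribution from the other members. It was at 0.247, 11.8 and 39.9 RPKM in SC GFP-positive samples, with values of 9.97, 3.73, 39.9, 0.247, 13.6 and 34.2 RPKM in replicates 1 to 6. SC GFP-negative samples held at most 1.14 RPKM, OMN GFP-positive samples at most 1.66 RPKM, and OMN GFP-negative samples at most 0.116 RPKM with 4 of 6 listed at 0. The SC GFP-positive group thus stood above the other 3 groups except for replicate 4. The SC step was 2.95 ± 0.56 (adjusted p = 0.00642), and the OMN step was 0.54 ± 0.56 (adjusted p = 0.751, 95% interval -0.62 to 1.69). *Rbfox3* (chr11:118489762-118911597), which encodes the neuronal nuclear antigen NeuN, was at 0.741, 2.75 and 27.0 RPKM in OMN GFP-positive and 0.0592, 0.230 and 2.68 RPKM in OMN GFP-negative samples. Its SC levels were 1.06, 6.33 and 33.6 RPKM in positive and 0.0484, 1.23 and 4.8 RPKM in negative samples. These ranges overlapped, yet *Rbfox3* was higher in the positive member of 6 of 6 OMN and 5 of 6 SC pairs. Its steps of 1.75 ± 0.65 (OMN, adjusted p = 0.125) and 1.89 ± 0.65 (SC, adjusted p = 0.212) passed with the replicate block (adjusted p = 0.00642 and 0.0216), the SC step not in a blocked fit of the spinal samples alone (adjusted p = 0.207).

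The Nova genes had group medians of at most 7.73 RPKM, with single SC GFP-positive samples far above that. *Nova1* (chr12:46694517-46818929) was at 1.43, 2.91 and 4.29 RPKM in OMN GFP-positive and 0.918, 1.24 and 2.58 RPKM in OMN GFP-negative samples, and at 3.13, 7.73 and 49.5 RPKM in SC GFP-positive and 1.97, 4.48 and 7.70 RPKM in SC GFP-negative samples. *Nova1* thus had its 2 highest group medians in the SC culture, although neighboring groups overlapped. *Nova2* (chr7:18925888-18965319) was at 0.311, 1.88 and 20.0 RPKM in OMN GFP-positive and 0.0385, 0.243 and 1.15 RPKM in OMN GFP-negative samples, and at 0.842, 2.31 and 33.5 RPKM in SC GFP-positive and 0.440, 0.642 and 8.10 RPKM in SC GFP-negative samples. The steps of *Nova1* were 0.59 ± 0.43 (OMN, adjusted p = 0.559) and 1.06 ± 0.43 (SC, adjusted p = 0.345), and those of *Nova2* were 1.3 ± 0.66 (adjusted p = 0.312) and 1.10 ± 0.66 (adjusted p = 0.613). *Nova2* was higher in the positive sample of 6 of 6 OMN pairs and passed there with the block (adjusted p = 0.0366). Of the exon bases of *Nova2*, 31.7% overlap *Gm26821* on the opposite strand, and the strand of the reads was not recorded in this type of library, so its level is uncertain.

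Of the polypyrimidine tract binding proteins, neither passed between fractions in the fit of 24 samples without the replicate block, and *Ptbp2* passed in OMN with it. *Ptbp1* (chr10:79854427-79864771) was at 0.580, 5.91 and 8.25 RPKM in OMN GFP-positive, 1.79, 5.47 and 16.4 RPKM in OMN GFP-negative, 0.742, 2.46 and 19.1 RPKM in SC GFP-positive and 0.0595, 3.68 and 19.2 RPKM in SC GFP-negative samples. All 4 groups overlapped. Its step was -0.52 (adjusted p = 0.848, 95% interval -1.97 to 0.94) in the OMN and -0.05 (adjusted p = 1.00, -1.5 to 1.4) in the SC culture, with the positive sample lower in 4 of 6 pairs of each. The label of a non-neuronal counterpart was thus not borne out by the test, although the intervals allow a sizeable change either way. *Ptbp1* shares 5.30% of its exon bases with *Plppr3*, 6.22% with *E130317F20Rik* and 9.22% with *Gm17134*, all on the opposite strand. *Ptbp2* (chr3:119718742-119784466) was at 22.9, 24.2 and 34.7 RPKM in OMN GFP-positive and 6.87, 12.5 and 22.5 RPKM in OMN GFP-negative samples, which did not overlap. In the SC culture it was at 13.0, 24.8 and 83.7 RPKM in positive and 11.2, 20.2 and 34.0 RPKM in negative samples. *Ptbp2* was higher in the positive sample of 6 of 6 pairs in each culture, by median ratios of 2.12 and 1.23. Its OMN step of 0.98 ± 0.36 passed with the block (adjusted p = 0.0107) and not without it (adjusted p = 0.121), and its SC step was 0.49 ± 0.36 (adjusted p = 0.719). Per length, *Ptbp2* exceeded *Ptbp1* in 6 of 6 OMN GFP-positive samples and in 5 of 6 samples of each other group, with median ratios of 4.22 in OMN GFP-positive, 1.68 in OMN GFP-negative, 13.4 in SC GFP-positive and 5.11 in SC GFP-negative samples. Within pairs that ratio was higher in the GFP-positive sample of 6 of 6 OMN pairs, 2.45 to 6.31 times that of the GFP-negative sample, and of 4 of 6 SC pairs, 0.137 to 4.12 times over all 6. The lowest of these came from SC pair 6, where *Ptbp1* was at 0.0595 RPKM in the GFP-negative sample. That level rests on few reads, as 1 read on 1 kb was worth 0.141 RPKM in that library. The ratio itself was not tested. *Ptbp2* was also the member with the highest median in each of the GFP-negative groups, so its transcript was not restricted to the sorted neurons.

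**Figure D2:**
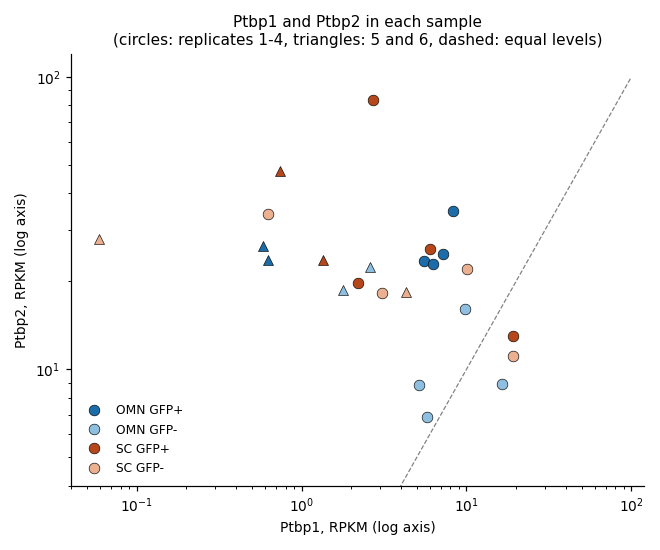
*Ptbp1* (x axis) against *Ptbp2* (y axis) in RPKM on log axes, 1 point per sample colored by group, with circles for replicates 1 to 4, triangles for replicates 5 and 6 and a dashed line at equal levels. *Ptbp2* lies above *Ptbp1* in all but 3 samples, and *Ptbp1* is at 0.0595 to 4.28 RPKM in the 8 samples of replicates 5 and 6.

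Counted together, 4 of the 10 members rose in the OMN GFP-positive fraction and none fell, against 3.81% of the 22179 genes tested that rose. The 4 were *Elavl2*, *Elavl3*, *Elavl4* and *Rbfox2*. In the SC GFP-positive fraction 3 of 10 rose (*Elavl2*, *Elavl4* and *Rbfox1*) and none fell, against 0.397% of all genes. The median step of the members was 1.47 in OMN and 1.26 in SC, with a median of 0 over all genes in each. Same-numbered positive and negative samples deviated together, and with the replicate number as a block the counts were 7 of 10 in OMN (8.22% of all genes) and 5 of 10 in SC (1.33%). In replicates 1 to 4 alone the OMN count was 3 (1.72%), without *Rbfox2*, and in replicates 5 and 6 alone it was 5 (2.46%).

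The SC counts depended more on the samples in the fit. Without the spinal pair 4 the steps were 2.79 for *Elavl2* (adjusted p = 1.86e-05), 2.52 for *Elavl4* (1.75e-05) and 3.49 for *Rbfox1* (3.26e-05), and the count was 4 (1.36%), or 7 with the block as well (3.05%). *Elavl3*, *Rbfox3*, *Nova1*, *Nova2* and *Ptbp2* then had steps of 1.79, 2.31, 1.29, 1.34 and 0.54 without passing in the fit without the block, and *Ptbp1* had -0.05. Some of those with positive steps are among the 7 that passed with the block. In a fit of the 12 spinal samples only, no member passed (5 did at an unadjusted p below 0.05) and 0.00479% of all genes rose, whereas that fit without pair 4 called the same 3 members (0.189%). Replicates 1 to 4 alone gave no call among the members (4 at an unadjusted p below 0.05) or among all genes that rose (0%), and replicates 5 and 6 alone gave 3 (0.584%). In 5 members all 6 OMN GFP-positive samples lay above all 6 OMN GFP-negative samples (*Elavl2*, *Elavl3*, *Elavl4*, *Rbfox2* and *Ptbp2*), as in 4.04% of all genes. In the SC culture no member was separated in this way (0.0721% of all genes).

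**Figure D3:**
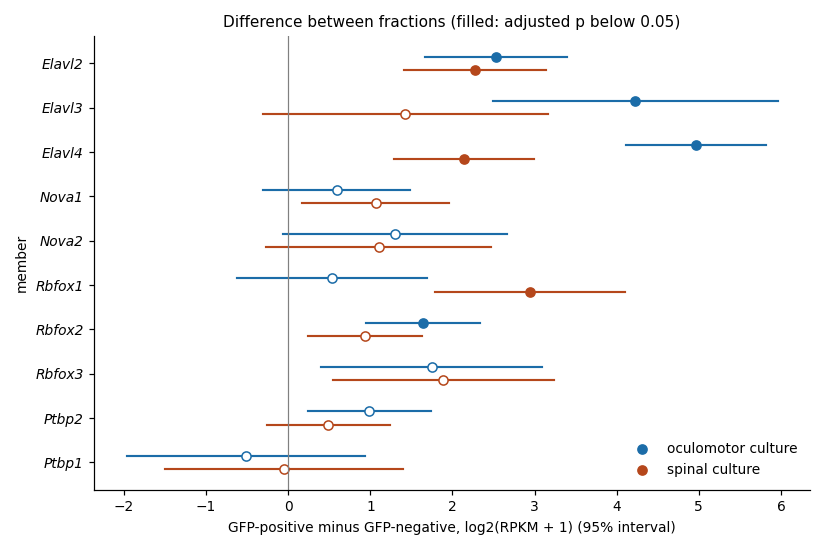
GFP-positive minus GFP-negative difference of each gene in log2(RPKM + 1) (x axis) with its 95% interval, for the oculomotor (blue) and spinal (red) cultures, from the fit of 24 samples without a block, with filled points where the adjusted p is below 0.05. The oculomotor difference exceeds the spinal one most for *Elavl3* and *Elavl4*, the spinal exceeds the oculomotor for *Rbfox1*, and *Ptbp1* lies at or below 0 in each.

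The fractions also differed in their make-up, as read from marker genes. The summed RPKM of 10 pan-neuronal markers was 1331 to 2093 in OMN GFP-positive against 17.9 to 74.2 in OMN GFP-negative samples, and 91.8 to 2692 against 47.6 to 366 in SC samples. Of these 10 markers 9 rose in the OMN and 6 in the SC GFP-positive fraction. The 6 pluripotency markers summed to 684 to 9876 RPKM in OMN GFP-negative and 0.315 to 259 RPKM in OMN GFP-positive samples, where 5 of 6 fell, and to 74.4 to 5785 and 14.4 to 12400 RPKM in SC GFP-negative and GFP-positive samples, where none passed. Proliferation markers fell in 4 of 10 genes in the OMN culture and in none in the SC culture (0 of 10 at an unadjusted p below 0.05). Without the spinal pair 4 the SC count of pan-neuronal markers was 9 of 10. The 7 glial markers summed to 2.30 to 10.6 RPKM in 3 groups and to 5.30 to 22.6 RPKM in SC GFP-negative samples, with *Sox10* listed at 0 in all 12 OMN samples and *Gfap* above 0 in 3 of the 24 samples. Of these 7, *Mbp* was higher in the positive sample of all pairs and rose in OMN (1.33, adjusted p = 0.0146) and, without pair 4, in SC (1.34, adjusted p = 0.0391), and *Pdgfra*, with a median of 5.65 RPKM in SC GFP-negative samples, fell in the SC GFP-positive fraction (-2.41, adjusted p = 0.0034). The 7 endoderm and mesoderm markers summed to 13.4 to 55.2 RPKM in SC GFP-negative against 0.214 to 11.8 RPKM in SC GFP-positive samples, where *Gata4*, *Gata6* and *Sox17* fell, and to 0.986 to 10.6 against 0.136 to 1.15 RPKM in the OMN culture. Of 10 neural progenitor markers 2 fell in OMN and none in SC in limma (1 at an unadjusted p below 0.05), or 1 in SC without pair 4. In bulk samples fewer cells of a type and less RNA per cell cannot be told apart, and the part of these markers in the members' steps was not tested.

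The comparison of the sorted motor neurons asks which genes distinguish oculomotor from spinal cells. None of the 10 members passed in OMN GFP-positive against SC GFP-positive samples in limma (3 at an unadjusted p below 0.05: *Elavl4*, *Nova1* and *Rbfox1*), where 0.603% of all 19240 genes tested did. *Elavl4* was higher in OMN by 1.47 ± 0.48 (adjusted p = 0.265), and all 6 OMN samples lay above all 6 SC samples, as in 0.733% of genes. Without SC GFP-positive replicate 4 that difference was 0.99 (adjusted p = 0.174). *Nova1* had a difference of -1.58 ± 0.52 (adjusted p = 0.263), with 5 of 6 SC samples above every OMN sample, the exception being replicate 4. That value was -1.87 (adjusted p = 0.148) without replicate 4, -0.76 in replicates 1 to 4 and -3.23 in replicates 5 and 6, where SC GFP-positive samples held 17.7 and 49.5 RPKM. *Rbfox1* had a difference of -2.82 ± 0.73 (adjusted p = 0.136), with 5 of 6 SC samples above every OMN sample. Without that replicate its difference was -3.43 and passed (adjusted p = 0.0131), and it also passed in the fit of all 24 samples (adjusted p = 0.00705). For *Elavl2*, *Elavl3*, *Nova2*, *Rbfox2*, *Rbfox3*, *Ptbp1* and *Ptbp2* the differences ran from -0.67 to 0.57 with adjusted p from 0.688 to 0.984. The interval for *Ptbp2* was -1.0 to 0.63 and that for *Rbfox2* -0.36 to 1.24, whereas that for *Elavl3* was as wide as -1.31 to 2.44. All 6 pluripotency markers were lower in OMN than in SC GFP-positive samples, with a median of -1.74. None of them passed in limma (3 at an unadjusted p below 0.05), and their part in the members' differences was not tested.

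In the GFP-negative fractions none of the 10 members passed either (4 at an unadjusted p below 0.05: *Elavl2*, *Elavl3*, *Elavl4* and *Nova1*, all lower in OMN), against 0.96% of all genes. *Elavl4* had a difference of -1.36 ± 0.41 (adjusted p = 0.135), and all 6 OMN samples lay below all 6 SC samples, as in 0.87% of genes. It passed without the spinal pair 4 (-1.46, adjusted p = 0.00623). *Elavl3* had a difference of -2.24 ± 0.84 (adjusted p = 0.273). Of the 10 members 9 were lower in the OMN GFP-negative fraction, with a median of -0.74 against -0.04 over all genes, and the summed pan-neuronal markers were also lower there, at 17.9 to 74.2 against 47.6 to 366 RPKM.

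The interaction of culture and fraction tests whether a step differed between the cultures. *Elavl4* passed, with a step larger by 2.83 ± 0.59 in the OMN culture (adjusted p = 0.0278), and was 1 of 10 members against 0.32% of all genes. Its level was higher than SC in the OMN positive fraction and lower than SC in the OMN negative fraction, and both differences enter this value. The interaction was also past the threshold with the block (adjusted p = 0.0178) and without the spinal pair 4 (2.44, adjusted p = 0.00297), but not without any 1 of OMN GFP-negative replicates 1, 2 and 5, OMN GFP-positive replicate 2, SC GFP-negative replicates 1 and 5 or SC GFP-positive replicate 5 (adjusted p from 0.0523 to 0.0636). *Elavl3* had an interaction of 2.80 ± 1.19 (adjusted p = 0.575), or 2.44 without the spinal pair 4 (adjusted p = 0.593). It passed with the block (adjusted p = 0.00737), where 2 of 10 members and 2.04% of all genes passed. *Rbfox1* had the opposite sign, at -2.41 ± 0.79 (adjusted p = 0.314), and passed without the spinal pair 4 (-2.95, adjusted p = 0.0145), where 2 of 10 members and 1.04% of all genes did. For *Elavl2* the steps differed by 0.25 with an interval of -0.97 to 1.48. A larger OMN step was not particular to members. Of the 10 pan-neuronal markers 9 had an interaction above 0, with a median of 2.10. Of these markers 1 passed in limma, and 6 were at an unadjusted p below 0.05.

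Replicates 1 to 4 and replicates 5 and 6 differed in level for part of the members, and this moved with the base composition of their transcripts. The share of G and C in the longest coding transcript (GENCODE M21) was 53.7% in *Ptbp1*, 54.1% in *Elavl3*, 56.3% in *Nova2* and 58.6% in *Rbfox3*, against 38.5% in *Elavl2* and *Nova1*, 38.9% in *Elavl4*, 43.1% in *Ptbp2*, 45.0% in *Rbfox1* and 51.5% in *Rbfox2*. Averaged over the 4 groups, replicates 1 to 4 exceeded replicates 5 and 6 by 1.97 for *Elavl3*, 1.72 for *Ptbp1*, 1.17 for *Nova2* and 1.00 for *Rbfox3* in log2(RPKM + 1). The other members differed by 0.42 (*Rbfox2*) down to -0.73 (*Nova1*), with a median of 0.35 over 11021 genes with a mean of at least 1 RPKM. Across those genes the same difference had a Spearman correlation of 0.49 with the G and C share, given as a description, and its median was -0.09 in genes of the lowest and 0.93 in genes of the highest quartile of that share. In OMN GFP-positive samples *Ptbp1* was at 5.56 to 8.25 RPKM in replicates 1 to 4 and at 0.580 to 0.628 RPKM in replicates 5 and 6, and *Elavl3* at 22.0 to 218 and at 14.6 to 17.2 RPKM. The ratio of *Ptbp2* to *Ptbp1* in OMN GFP-positive samples was 3.45 to 4.24 in replicates 1 to 4 and 37.7 and 45.6 in replicates 5 and 6. Replicates 5 and 6 were also the deeper libraries. The study's methods name a pair of Illumina platforms with different read lengths but not which sample ran on which, and the part of platform, base composition or depth in these differences was not tested. Each group holds 4 and 2 replicates of these sets, so the sets are equally represented in the groups, although a difference between groups can be of another size in each set, as for *Nova1*. A term for the sets changed none of the 5 counts of members called.

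**Figure D4:**
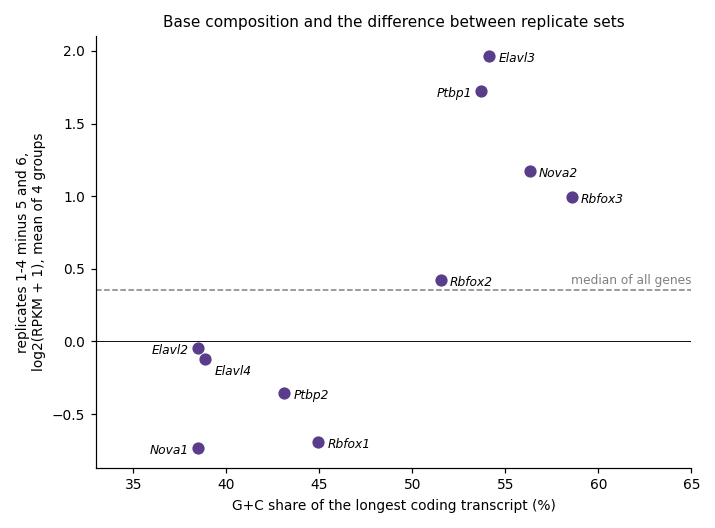
Share of G and C in the longest coding transcript in percent (x axis) against the difference of replicates 1 to 4 from replicates 5 and 6 in log2(RPKM + 1), averaged over the 4 groups (y axis), 1 point per gene, with a dashed line at 0.35, the median of 11021 genes. *Elavl3*, *Ptbp1*, *Nova2* and *Rbfox3*, all at 53.7% G and C or above, lie at 1.00 to 1.97, and the 5 members at or below 45.0% lie below 0.

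Other regulators of the same kind were counted beside the members, in fits without the replicate block only. Of 11 further neuronal RNA-binding proteins, 4 rose in the OMN GFP-positive fraction, against the 3.81% of all genes given above, and none fell. *Srrm4*, which promotes inclusion of neuronal microexons, rose by 3.36 ± 0.49 (adjusted p = 9.86e-05) from a median of 0.384 to 16.4 RPKM, and *Srrm3*, its paralog, by 2.47 ± 0.54 (adjusted p = 0.00628). *Celf3* rose by 2.74 ± 0.70 (adjusted p = 0.0192) and *Celf6* by 2.05 ± 0.35 (adjusted p = 0.000611). None of these 11 passed in the SC culture in limma (5 at an unadjusted p below 0.05). *Mbnl2* was lower in the positive sample of 6 of 6 SC pairs (-1.59, adjusted p = 0.051), and without the spinal pair 4 it passed (-1.88, adjusted p = 0.0132), as did *Celf4* in the other direction (2.06, adjusted p = 0.0187). In the SC culture *Srrm4* went from a median of 2.62 to 8.29 RPKM (1.37, adjusted p = 0.241). *Celf2*, *Khdrbs2* and *Mbnl2* had steps from -0.59 to -0.08 in OMN without passing. Of 17 RNA-binding proteins of progenitors and non-neuronal cells, 2 fell in the OMN GFP-positive fraction, against 2.34% of all genes, namely *Rbpms2* (-2.74 ± 0.75, adjusted p = 0.0283) and *Mbnl3* (-0.37 ± 0.10, adjusted p = 0.0236). *Ptbp3* and *Elavl1*, the broadly expressed relatives of the members, did not pass (0.33, adjusted p = 0.681, and -0.20, adjusted p = 0.892). *Lin28b*, which blocks let-7 maturation, was higher in OMN than in SC GFP-positive samples by 1.72 ± 0.33 (adjusted p = 0.035). Its difference had the same sign in GFP-negative samples without passing (1.37, adjusted p = 0.0807), with an interaction of 0.35 (limma, adjusted p = 0.925). None of 25 general SR and hnRNP splicing factors passed in any of the 5 comparisons in limma, with 0 to 4 of them at an unadjusted p below 0.05 and a summed level of 1845 to 11880 RPKM per sample.

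Upstream of these genes, *Rest*, the repressor of neuronal genes in non-neuronal cells, fell by 2.84 on the log2 scale in the OMN GFP-positive fraction (SE 0.53, adjusted p = 0.00129), from a median of 20.8 to 1.82 RPKM, and did not pass in the SC culture (-0.85, adjusted p = 0.627). *Gap43*, a growth-cone transcript that HuD binds and stabilizes, rose by 6.82 ± 0.94 in OMN (adjusted p = 5.21e-05), from a median of 5.13 to 480 RPKM, and had an SC step of 1.90 (adjusted p = 0.496), or 2.41 without the spinal pair 4 (adjusted p = 0.0653). In limma on all 24 samples the *Gap43* step was larger in OMN by 4.92 without passing (interaction, adjusted p = 0.135). Its difference between OMN and SC GFP-negative samples did not pass there either (-3.64, adjusted p = 0.0631). Without the spinal pair 4 both passed, at 4.41 (adjusted p = 0.021) and -4.12 (adjusted p = 0.000876). *Dlg4*, whose transcript decays when PTBP proteins skip an exon, was at or below 1.33 RPKM in all samples, with steps of 0.40 in OMN (adjusted p = 0.185) and 0.13 in SC (adjusted p = 0.872). *Gabbr1*, also described as a target, did not pass in any comparison, with steps of 1.35 in OMN (adjusted p = 0.178) and 0.98 in SC (adjusted p = 0.58).

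By median level the order in OMN GFP-positive samples was *Elavl4*, *Elavl3*, *Ptbp2*, *Rbfox2*, *Elavl2*, *Ptbp1*, *Nova1*, *Rbfox3*, *Nova2* and *Rbfox1*. Neighbors in that order were often not distinct: *Elavl3* exceeded *Ptbp2* in 3 of 6 samples and *Nova1* exceeded *Rbfox3* in 3 of 6, whereas *Elavl2* exceeded *Ptbp1* in 6 of 6. In SC GFP-positive samples *Elavl4*, *Elavl3* and *Elavl2* led, and *Rbfox1* stood between *Rbfox2* and *Nova1*, above neither neighbor in more than 3 of 6 samples. The genes whose log2 levels were most like *Elavl3* over the 24 samples, among 11678 genes with a mean of at least 1 RPKM, were *Dpysl4* (Pearson r = 0.954), *Meis3* (0.952), *Apba2* (0.942), *Brsk2* (0.939) and *Tubb2b* (0.938). Those most like *Ptbp1* were *Cops7a* (r = 0.909), *Rae1* (0.908), *Slc25a39* (0.905), *Apba3* (0.904) and *Aldoa* (0.903). The 24 points share libraries, pairs and the replicate sets above, so these values describe likeness only.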

How the data were processed

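The 24 samples were assigned to groups from the submitters' titles. Per the labels and methods, the authors prepared Smart-seq2 libraries, mapped reads to mm10 with HISAT2 (2.0.3 in the submitters' processing notes) and computed RPKM with rpkmforgenes. The deposited table holds RPKM per gene and no counts, and the authors' DESeq2 comparisons (1.12.4) were not used. Normalization to mapped reads means that a few very abundant genes lower all others. Values were analyzed as log2(RPKM + 1), which understates changes of genes near 1 RPKM, with limma 3.58.1 in R 4.3.3 (moderated variance with a trend, Benjamini-Hochberg over all genes tested, threshold 0.05). The contrast of OMN with SC GFP-positive cells used its own 12 libraries, and the other contrasts used all 24. The script was tested on simulated data. Depth was estimated from the RPKM steps of 5911 single-transcript genes, of whose low values 95.9% to 97.8% were whole reads, and 1 read on 1 kb was worth 0.130 to 1.33 RPKM. Positions and transcripts are from GENCODE M21 (GRCm38), and promoters from RefSeq (GRCm38.p6), where 9 of 10 members matched.

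Whether replicate numbers pair the fractions was checked by correlating deviations from group means over 11952 genes. All 6 same-numbered pairs exceeded 0.1 in OMN (0.38 to 0.73) and in SC (0.42 to 0.66), so blocked values are given where they change a call of a member. The marker lists and the other gene lists were read only without the block. Named genes were all 10 members, the reporter checks, up to 4 of the largest changes past the threshold per list (others only as values), and the 5 genes most like *Elavl3* and *Ptbp1*. The members and lists were chosen with earlier results of these data known. Leaving out spinal pair 4 and fits of 1 culture with a block were added after the data were seen.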

Additional observations from a re-analysis of the deposited data

Results flagged for a closer look

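Among the 40 sets of 6 values (10 members in 4 groups), 5 had an extreme sample whose gap to its nearest neighbor exceeded Dixon's 95% critical value as a share of the range, and chance alone gives about 1 set in 20. *Elavl4* was low in SC GFP-positive replicate 4, at 13.9 RPKM, in the pair whose fractions were alike. *Nova2* was high in OMN GFP-positive replicate 4, at 20.0 RPKM, in OMN GFP-negative replicate 4, at 1.15 RPKM, and in SC GFP-negative replicate 3, at 8.10 RPKM. The first 2 of these are the fractions of 1 pair. *Ptbp2* was high in OMN GFP-positive replicate 3, at 34.7 RPKM. The step of *Elavl4* between fractions differed between the cultures by 2.83 on the log2 scale (limma interaction, adjusted p = 0.0278).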

How the results depend on the processing

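Of 1478 values of single members under the alternatives, 1402 kept their direction and their side of the threshold, 36 passed in addition, 21 no longer passed and 19 changed direction, all in 3 members whose values had not passed. For the interaction, only *Elavl3*, *Elavl4* and *Rbfox1*, the members with the largest interactions, enter this count. Changes of direction in the smaller interactions of the other members are therefore not counted. In OMN against SC GFP-positive samples, sample quality weights gave -0.18 for *Elavl3* and -0.10 for *Ptbp1*, replicates 5 and 6 alone gave -0.33 for *Ptbp1*, and leaving out 1 replicate gave -0.19 to 0.51 for *Ptbp1* and -0.41 to 0.11 for *Ptbp2*. For *Ptbp1* between SC fractions, an offset of 0.1 RPKM gave 0.26, replicates 1 to 4 alone gave 0.043, dropping SC GFP-negative replicates 2 and 4 gave 0.13, and leaving out 1 replicate gave -0.49 to 0.39. The causes were not tested.

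Members called in OMN against SC GFP-positive samples (0) became 1 with weights (1.35% of all genes called), in the fit of all 24 samples (1.54%) and without the spinal pair 4 (0.633%), and were 0 to 1 with 1 replicate left out. Between GFP-negative fractions 0 became 1 with weights (2.93%) and without pair 4 (2.67%), and 0 to 1 with 1 replicate left out. Between SC fractions 3 became 0 in replicates 1 to 4 (0.00478%) and in the fit of that culture alone (0.0192%), where limma gave 4 and 5 at an unadjusted p below 0.05. The interaction count of 1 became 2 with weights (1.08%) and without pair 4 (1.04%), 0 in replicates 1 to 4 (0.0478%) and in replicates 5 and 6 (0.45%, limma, 3 at an unadjusted p below 0.05 in each), and 0 to 2 with 1 replicate left out. Over the alternatives the adjusted p of the *Elavl4* interaction ran from 0.00158 to 0.425.

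With the replicate block 4 calls became 7 between OMN fractions (16.4% of all genes), also without pair 4 (16.8%) and in a fit of that culture alone (26.6%). Between SC fractions 3 became 5 (2.93%), 7 without pair 4 (5.67%), and 0 in a fit of that culture alone (0%, 9 at an unadjusted p below 0.05 in limma). The interaction count became 2 (2.04%), and 3 without pair 4 (2.29%). Between cultures the numbers did not pair the samples (4 of 6 above 0.1, the lowest -0.17), and the block gave 0 calls among members in either comparison (limma, 3 and 4 at an unadjusted p below 0.05). Genes called over the whole table rose with the block from 1364 to 3644 between OMN fractions, from 272 to 649 between SC fractions, from 71 to 453 for the interaction and from 213 to 563 between GFP-negative fractions, and fell from 116 to 73 between GFP-positive fractions. With weights the first and last of these were 3795 and 260, in replicates 1 to 4 alone they were 476 and 30, and the fit of all 24 samples gave 342 in the last. A read on 1 kb was worth 1.33 RPKM in the shallowest library, so the low levels of *Rbfox1*, *Rbfox3* and *Nova2* rest on few reads there.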
